A study of Homo sapiens with 54 samples.

Results

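ANGPTL4, PDK4, CPT1A, PLIN2, HILPDA, PPARD, PPARG, ACADVL and SLC25A20 were followed through MDA-MB-231 cells exposed to Compound Kushen Injection (CKI), a natural compound mixture from traditional Chinese medicine, and to CKI mixtures with components taken out. These are 9 of the 27978 genes counted. They were selected by symbol, with their levels in these libraries already known, as a lipid gene group: 2 receptors of the PPAR family and 7 genes known to be switched on by PPARs. Their own levels and differences are therefore given as a description, with no p-value; where the number of them that passed the threshold of the fit over all genes is given, it stands beside the share of all genes that did, and nothing is read from it. Tests are reported for 93 other genes of the same pathway and for lists of hypoxia and glucocorticoid targets. These lists were also chosen with earlier results of these data known, and many of the genes named were picked by the size of their change. Their adjusted p-values and counts do not allow for that choice.

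PPARs are nuclear receptors that bind fatty acids and, paired with an RXR partner, switch on genes for taking up, storing and burning fat. PPARA is best known in liver, PPARG in fat cells, and PPARD in many tissues, and the receptors share many target genes. Several of these targets, ANGPTL4, PLIN2 and HILPDA among them, are also known to be induced when oxygen is low.

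MDA-MB-231 is an established human breast cancer cell line. Each of the 18 groups held 3 RNA-seq libraries, which the study calls biological replicates. In batch 1, cells were harvested at 24 h and again at 48 h without treatment, with CKI (2 mg/ml) or with 1 of 4 mixtures. Of these mixtures, N-OmtOspc was CKI with Omt and Ospc removed, N-MacOmtOspc was CKI with Mac, Omt and Ospc removed, OmtOspc held Omt and Ospc alone, and MacOmtOspc held Mac, Omt and Ospc alone. In batch 2, all at 48 h, the groups were untreated cells, CKI, and CKI lacking 1 component, written N-Mac, N-Nme, N-Omt and N-Tri. The labels do not spell out these abbreviations; compounds that the study measured in CKI include macrozamin, oxymatrine, oxysophocarpine, N-methylcytisine and trifolirhizin. All mixtures were made by fractionating CKI and recombining the fractions, at the equivalent of 2 mg/ml. None of the 54 libraries came from cells given the complete set of fractions put back together, so the loss of a component and the handling of the fractions cannot be told apart in a comparison with whole CKI. The labels call the controls untreated and name no vehicle.

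The upstream sequences of 3 of the genes are shown because they act in different places, outside the cell, in the mitochondrion and on the fat droplet, and their levels separated the treatments in different ways. Each run is the 250 bases before the RefSeq gene start in build GRCh38.p14, read 5′ to 3′ on the gene's own strand, with capitals marking ACGTG, the core of the hypoxia response element, on either strand. ANGPTL4 lies on the plus strand at chr19:8363905-8364154, PDK4 on the minus strand at chr7:95596517-95596766, and PLIN2 on the minus strand at chr9:19127493-19127742.
ANGPTL4: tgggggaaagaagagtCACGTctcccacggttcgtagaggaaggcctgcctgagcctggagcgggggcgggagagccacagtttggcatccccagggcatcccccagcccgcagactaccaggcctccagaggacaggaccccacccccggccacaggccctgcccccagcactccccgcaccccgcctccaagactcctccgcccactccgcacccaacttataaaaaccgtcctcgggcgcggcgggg
PDK4: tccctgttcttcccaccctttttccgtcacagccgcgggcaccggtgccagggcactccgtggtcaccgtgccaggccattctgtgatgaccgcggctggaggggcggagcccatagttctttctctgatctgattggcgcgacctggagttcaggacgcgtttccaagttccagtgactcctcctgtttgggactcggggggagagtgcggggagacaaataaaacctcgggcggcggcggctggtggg
PLIN2: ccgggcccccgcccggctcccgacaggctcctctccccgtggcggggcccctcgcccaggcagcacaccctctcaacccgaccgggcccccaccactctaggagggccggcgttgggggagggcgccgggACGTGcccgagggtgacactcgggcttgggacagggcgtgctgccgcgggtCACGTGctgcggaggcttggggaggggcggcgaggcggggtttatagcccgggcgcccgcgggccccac
The ANGPTL4 window held ACGTG at 1 position, 234 bases before the start, and the PLIN2 window at 3 positions, 120, 69 and 68 bases before the start, the last 2 overlapping on opposite strands. PDK4 had none, nor had CPT1A, PPARD and SLC25A20, while 1 of the 6 windows listed for PPARG and 1 of the 2 for ACADVL held it. For comparison, 18.5% of all 35116 upstream windows of this length in the RefSeq table held ACGTG on either strand. Windows were listed for 8 of the 9 genes, HILPDA not being among them. The PPAR-type direct repeat, which is AGGTCA in 2 copies spaced by 1 base, was in none of these windows and in 0.0171% of all windows. Only exact copies within the 250 bases were sought. The exact repeat is so rare that its absence here tells nothing about PPAR sites of these genes. A single AGGTCA, on either strand, was in 3 of the 6 windows listed for PPARG and in 12.1% of all windows.

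Total counts per library ran from 17673537 to 26138924. All 9 genes passed the filter on low counts in every comparison, with between 9 counts (PDK4) and 18595 counts (ACADVL) in a library. The breast line markers VIM, CD44, EGFR and KRT18 were at 66.8 CPM or more throughout, and ESR1 and PGR had at most 8 counts; EPCAM and ERBB3 were low but present, at 3.82 to 27.6 CPM. Among markers of other cells, PTPRC, CD3E, ALB and LEP had at most 10 counts in any library and PECAM1 at most 122. Of the 36 libraries of batch 1, 3 stood apart: CKI replicate 1, OmtOspc replicate 2 and N-MacOmtOspc replicate 2, all at 24 h. Over the 1106 genes that separate untreated cells of the 2 batches, these 3 departed from the other replicates of their group in the direction of batch 2, with slopes of 0.557 to 0.624 against -0.384 to 0.0859 in the other 33. Apart from these, N-OmtOspc replicate 3 at 24 h differed from the other replicates of its group by a chi-square per degree of freedom of 90.7 and 137 (11.2 between those), and N-MacOmtOspc replicate 2 at 48 h by 51.01 and 63.4 (12.7 between those). The log2 fold changes of the 9 genes against untreated cells in these groups are also given without those libraries. By the same chi-square, OmtOspc at 24 h gave 83.2 for replicates 1 and 2, 53.9 for 1 and 3, and 31.7 for 2 and 3. There replicate 1 differed most by this measure, but the 9 genes are given without replicate 2 only.

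Levels are in CPM, a gene's counts relative to the TMM-normalised size of its library, and are given for replicates 1, 2 and 3 in that order or as the mean ± SD (n = 3). Log2 fold changes are from edgeR's quasi-likelihood fit of the 6 libraries compared, ± the standard error implied by its test (3 against 3), and "called" means an adjusted p under 0.05 over all genes tested. The treated groups of 1 time point and batch were all compared with the same 3 untreated libraries. Where libraries lie wholly above or below those of CKI or another mixture, the share of all genes doing so was not computed.

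**Figure D1:**
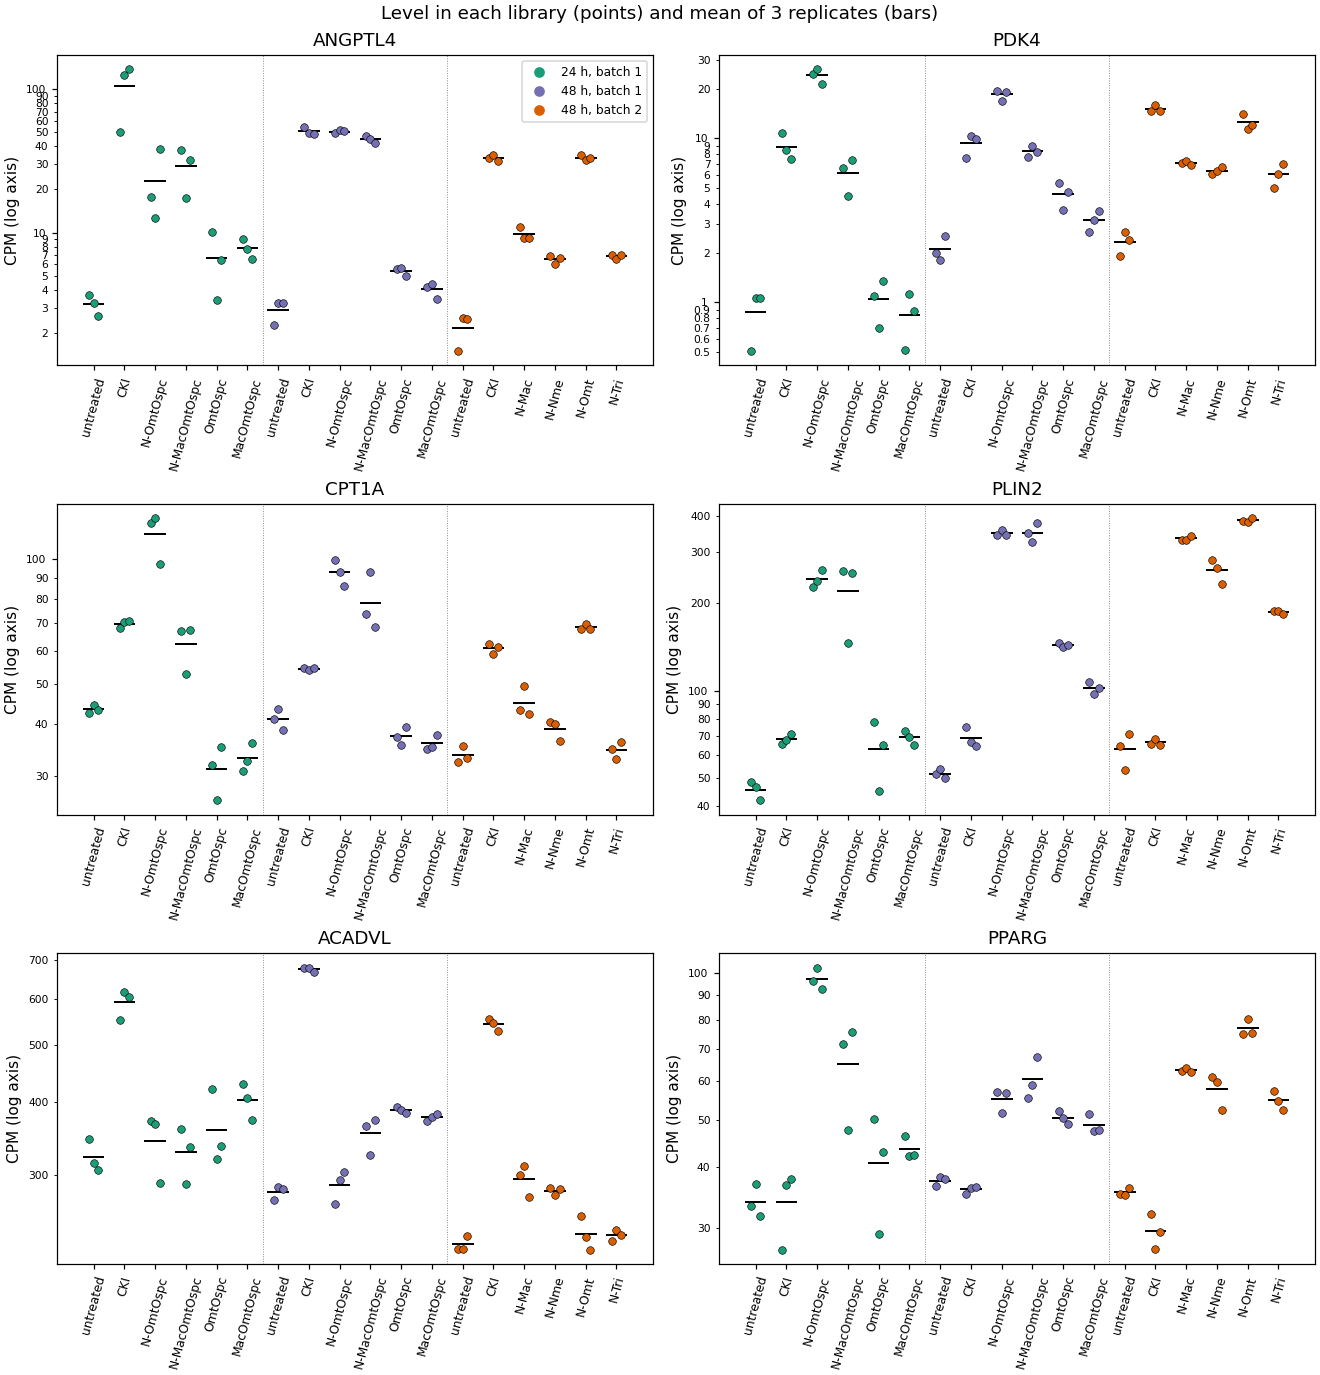
Level of 6 of the genes in every library (points, CPM, log axis) with the mean of the 3 replicates (bars), for the 18 groups in order of time point and batch. ANGPTL4 reaches its highest mean, 105 CPM, with CKI at 24 h, PLIN2 is highest in the mixtures that lack a component, and ACADVL in the 3 CKI groups.

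ANGPTL4, a secreted protein that blocks lipoprotein lipase and so the uptake of fat from circulating lipoproteins, was the gene of the group that moved most. In untreated cells it stood at 3.65, 3.21 and 2.63 CPM at 24 h, at 2.27, 3.21 and 3.22 CPM at 48 h in batch 1 and at 1.49, 2.55 and 2.49 CPM in batch 2. With CKI it was at 50.01, 126 and 138 CPM at 24 h, 54.5, 49.9 and 48.7 CPM at 48 h in batch 1 and 33.4, 34.7 and 31.4 CPM in batch 2. All 9 CKI libraries were above all 9 untreated ones. In these 3 comparisons 26.9%, 32.2% and 34.5% of all genes tested lay wholly above untreated cells. The log2 fold changes were 5.05 ± 0.41, 4.15 ± 0.11 and 3.95 ± 0.13. At 24 h the library that stands apart, replicate 1, was the lowest of the 3, and without it the log2 fold change was 5.39 ± 0.11.

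Taking Omt and Ospc out of CKI left ANGPTL4 at 49.5, 51.6 and 50.8 CPM at 48 h, the level of whole CKI. At 24 h the same mixture gave 17.8, 12.7 and 38.3 CPM, below every CKI library but with replicate 3 well above the other 2. Taking Mac out as well gave 37.6, 17.4 and 31.9 CPM at 24 h, where replicate 2 is the library that stands apart, and 47.4, 44.9 and 42.1 CPM at 48 h. The removed components alone gave far less. With OmtOspc ANGPTL4 was at 10.1, 3.38 and 6.40 CPM at 24 h, overlapping untreated cells, and at 5.56, 5.69 and 4.97 CPM at 48 h. With MacOmtOspc it was at 9.09, 7.68 and 6.60 CPM and 4.20, 4.41 and 3.45 CPM. Among the 15 treated groups, OmtOspc at 24 h was the 1 group whose libraries did not all lie above untreated cells. Of all genes tested, 34.3% and 40.2% did so with N-OmtOspc at 24 and 48 h, 27.9% and 33.7% with N-MacOmtOspc, 19.0% and 35.8% with OmtOspc, 23.4% and 33.0% with MacOmtOspc, and 37.2%, 37.1%, 39.5% and 38.5% with N-Mac, N-Nme, N-Omt and N-Tri. Without its replicate 2 the log2 fold change with OmtOspc at 24 h was 1.38 ± 0.24, against 1.06 ± 0.36 with it.

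Among the single removals of batch 2, ANGPTL4 stood near the CKI level with N-Omt and lower with N-Mac, N-Nme and N-Tri. N-Omt gave 34.6, 32.0 and 33.0 CPM, the range of whole CKI. N-Mac gave 10.9, 9.21 and 9.22 CPM, N-Nme 6.93, 6.05 and 6.70 CPM and N-Tri 7.01, 6.56 and 7.00 CPM, all of them below every CKI library and above every untreated library of the batch. Every N-Mac library was above every N-Nme and N-Tri library. Ranked by mean over the 18 groups, ANGPTL4 ran from 2.18 CPM in untreated cells of batch 2 to 105 CPM with CKI at 24 h, a 48.2-fold span. In that order the 3 untreated groups overlapped one another, and MacOmtOspc at 48 h overlapped untreated cells of the 24 h block. N-Nme, OmtOspc at 24 h, N-Tri and MacOmtOspc at 24 h overlapped their neighbours, as did N-OmtOspc at 24 h, N-MacOmtOspc at 24 h, CKI and N-Omt in batch 2, and then N-OmtOspc at 48 h and CKI at 48 h and 24 h in batch 1. OmtOspc at 48 h, N-Mac and N-MacOmtOspc at 48 h were each apart from both neighbours. Groups further off in that order could still overlap, as OmtOspc at 24 h did with OmtOspc at 48 h and with N-Mac.

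PDK4, a kinase that shuts off pyruvate dehydrogenase and so turns cells from glucose toward fat as fuel, was low in untreated cells. It was at 0.505, 1.07 and 1.06 CPM at 24 h, 1.99, 1.82 and 2.56 CPM at 48 h in batch 1 and 1.92, 2.67 and 2.41 CPM in batch 2. With CKI it was at 10.8, 8.49 and 7.46 CPM, 7.61, 10.4 and 9.94 CPM and 14.7, 16.0 and 14.7 CPM, with log2 fold changes of 3.31 ± 0.28, 2.15 ± 0.16 and 2.72 ± 0.12, and 3.14 ± 0.23 at 24 h without replicate 1. Unlike ANGPTL4, PDK4 was highest with N-OmtOspc, at 24.5, 26.4 and 21.4 CPM at 24 h and 19.5, 17.0 and 19.3 CPM at 48 h, above every CKI library of the same time point and batch. With N-MacOmtOspc it was lower, at 6.64, 4.43 and 7.37 CPM and 7.70, 8.98 and 8.28 CPM. OmtOspc and MacOmtOspc overlapped untreated cells at 24 h, at 1.05 ± 0.328 CPM and 0.840 ± 0.305 CPM, and lay above them at 48 h, at 4.57 ± 0.874 CPM and 3.16 ± 0.473 CPM.

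CPT1A, which loads long-chain fatty acids onto carnitine for entry into the mitochondrion, followed PDK4 at a smaller scale in part of the groups. Untreated cells held 43.4 ± 0.892 CPM, 41.1 ± 2.41 CPM and 33.6 ± 1.59 CPM at 24 h, at 48 h in batch 1 and in batch 2. CKI cells held 69.8 ± 1.35 CPM, 54.3 ± 0.416 CPM and 60.8 ± 1.78 CPM in the same order. The level was highest with N-OmtOspc, at 122, 125 and 97.3 CPM at 24 h and 99.4, 92.7 and 86.1 CPM at 48 h. With N-MacOmtOspc CPT1A was at 66.9, 52.9 and 67.45 CPM at 24 h and 73.5, 92.9 and 68.4 CPM at 48 h. At 48 h these libraries lay above every CKI library of the batch, whereas PDK4 with this mixture lay within the CKI range. With the removed components alone CPT1A was on the other side of untreated cells, at 31.9, 26.2 and 35.3 CPM with OmtOspc and 30.9, 32.6 and 36.0 CPM with MacOmtOspc at 24 h, all 6 libraries below the 3 untreated ones, as were 19.0% and 23.3% of all genes. The OmtOspc log2 fold change there was -0.48 ± 0.13, and -0.37 ± 0.10 without replicate 2.

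ACADVL and SLC25A20 had their highest levels with whole CKI, every CKI library lying above every mixture library of the same time point and batch. The share of all genes that did so was not computed. Of all genes tested, 54.0% and 77.8% were called in either direction between N-OmtOspc and CKI at 24 and 48 h. With the batch 2 mixtures the share called against CKI was 72.7% to 80.5%. ACADVL carries out the first step of the oxidation of very long chain fatty acids, and SLC25A20 is the carrier that brings acylcarnitines across the inner mitochondrial membrane. ACADVL was at 346, 314 and 306 CPM in untreated cells at 24 h and 552, 617 and 605 CPM with CKI, at 271, 285 and 283 CPM and 678, 677 and 668 CPM at 48 h in batch 1, and at 224, 224 and 236 CPM and 554, 545 and 528 CPM in batch 2. Its log2 fold changes were 0.88 ± 0.09, 1.28 ± 0.05 and 1.27 ± 0.04. In the 12 groups given a mixture the mean ran from 236 CPM with N-Tri to 402 CPM with MacOmtOspc at 24 h, below every CKI library of the series. Of these 12 groups 6 lay wholly above untreated cells, by log2 fold changes of 0.30 with N-Nme, 0.32 and 0.42 with MacOmtOspc at 24 and 48 h, 0.35 with N-MacOmtOspc at 48 h, 0.38 with N-Mac and 0.47 with OmtOspc at 48 h.

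SLC25A20 was at 9.99, 9.64 and 8.53 CPM in untreated cells and 16.4, 21.9 and 22.5 CPM with CKI at 24 h. At 48 h the levels were 9.17, 9.03 and 9.26 CPM and 15.9, 15.8 and 15.0 CPM in batch 1, and 5.53, 6.07 and 5.53 CPM and 15.1, 15.4 and 13.8 CPM in batch 2. The lowest CKI library of each block was above the highest untreated one. Of the mixtures, N-OmtOspc at 48 h gave the highest mean, 10.2 ± 0.755 CPM, and N-OmtOspc at 24 h the lowest, 4.49, 3.57 and 7.89 CPM, all 3 libraries below untreated cells, as were 37.8% of all genes. In batch 2 N-Mac stood at 8.32, 8.13 and 9.01 CPM, above untreated cells by a log2 fold change of 0.58 ± 0.11, and N-Nme, N-Omt and N-Tri between 6.28 and 6.76 CPM on average. OmtOspc and MacOmtOspc at 48 h lay below untreated cells, at 6.94 ± 0.520 CPM and 7.61 ± 0.281 CPM, as did 35.0% and 31.5% of all genes.

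PLIN2 was ordered the other way round, lower with whole CKI than with the mixtures that lacked a component. It encodes a coat protein of lipid droplets, found in most cells that store fat. Untreated cells were at 48.6, 46.5 and 41.9 CPM at 24 h, 51.6, 53.9 and 50.03 CPM at 48 h in batch 1 and 64.8, 53.3 and 70.8 CPM in batch 2, and CKI cells at 65.4, 67.6 and 71.3 CPM, 75.2, 66.7 and 64.3 CPM and 65.8, 68.3 and 65.3 CPM. With CKI the libraries lay above untreated cells in batch 1 and overlapped them in batch 2, with log2 fold changes of 0.58 ± 0.09, 0.42 ± 0.07 and 0.10 ± 0.08. Every mixture that lacked a component gave several times as much.

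With N-OmtOspc, PLIN2 was at 228, 239 and 262 CPM at 24 h and 345, 358 and 343 CPM at 48 h. With N-MacOmtOspc it was at 258, 147 and 255 CPM and 349, 325 and 378 CPM, and at 24 h the log2 fold change was 2.29 ± 0.22 with replicate 2 and 2.51 ± 0.08 without it. In batch 2 the levels were 386, 383 and 393 CPM with N-Omt, 332, 332 and 343 CPM with N-Mac, 283, 264 and 233 CPM with N-Nme and 189, 189 and 184 CPM with N-Tri. The lowest library of all 8 groups lacking a component, 147 CPM, was the N-MacOmtOspc library that stands apart, and it was still above all CKI libraries. OmtOspc and MacOmtOspc gave 62.8 ± 16.5 CPM and 69.1 ± 3.75 CPM at 24 h, near whole CKI, and 144 ± 2.07 CPM and 102 ± 4.86 CPM at 48 h, above it.

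HILPDA, a small droplet protein that inhibits the lipase ATGL, varied less. It was at 13.4 ± 0.527 CPM, 13.7 ± 1.08 CPM and 13.0 ± 0.237 CPM in untreated cells and at 16.4 ± 3.90 CPM, 19.4 ± 1.26 CPM and 16.2 ± 0.413 CPM with CKI, where only the 24 h libraries overlapped untreated cells. The log2 fold change at 24 h was 0.29 ± 0.17, and 0.47 ± 0.10 without CKI replicate 1, the lowest of the 3 libraries at 12.1 CPM. Its highest levels were 34.7, 37.1 and 30.6 CPM with N-Mac and 35.0, 28.6 and 31.4 CPM with N-Omt, and N-OmtOspc held 26.7 ± 2.24 CPM and 26.6 ± 1.04 CPM. OmtOspc and MacOmtOspc were slightly above untreated cells at 24 h and at or below them at 48 h, at 11.4, 12.3 and 12.8 CPM and 11.8, 11.9 and 11.9 CPM.

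Of the receptors, PPARG followed PLIN2. Untreated cells held 34.0 ± 2.73 CPM, 37.5 ± 0.815 CPM and 35.5 ± 0.647 CPM of PPARG, and CKI cells 34.0 ± 5.93 CPM, 36.0 ± 0.637 CPM and 29.6 ± 2.45 CPM. The CKI log2 fold changes were 0.00 ± 0.14, -0.04 ± 0.06 and -0.25 ± 0.06, and 0.13 ± 0.09 at 24 h without replicate 1. With N-OmtOspc at 24 h it was at 96.4, 102 and 92.6 CPM, and in the other mixtures lacking a component its mean ran from 54.8 to 76.9 CPM. OmtOspc and MacOmtOspc had means between 40.8 and 50.5 CPM. The OmtOspc libraries at 24 h, at 50.1, 29.2 and 43.0 CPM, overlapped untreated cells. PPARD varied least of the 9 genes, by 2.04-fold between its lowest and highest group. It was at 90.5 ± 1.66 CPM, 107 ± 4.19 CPM and 121 ± 7.66 CPM in untreated cells, 126 ± 17.8 CPM, 128 ± 4.72 CPM and 140.1 ± 2.82 CPM with CKI, and highest with N-OmtOspc at 24 h (200.3, 198 and 155 CPM) and N-Mac (179.7, 181 and 155 CPM), with OmtOspc at 48 h next (168, 169.8 and 167 CPM).

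**Figure D2:**
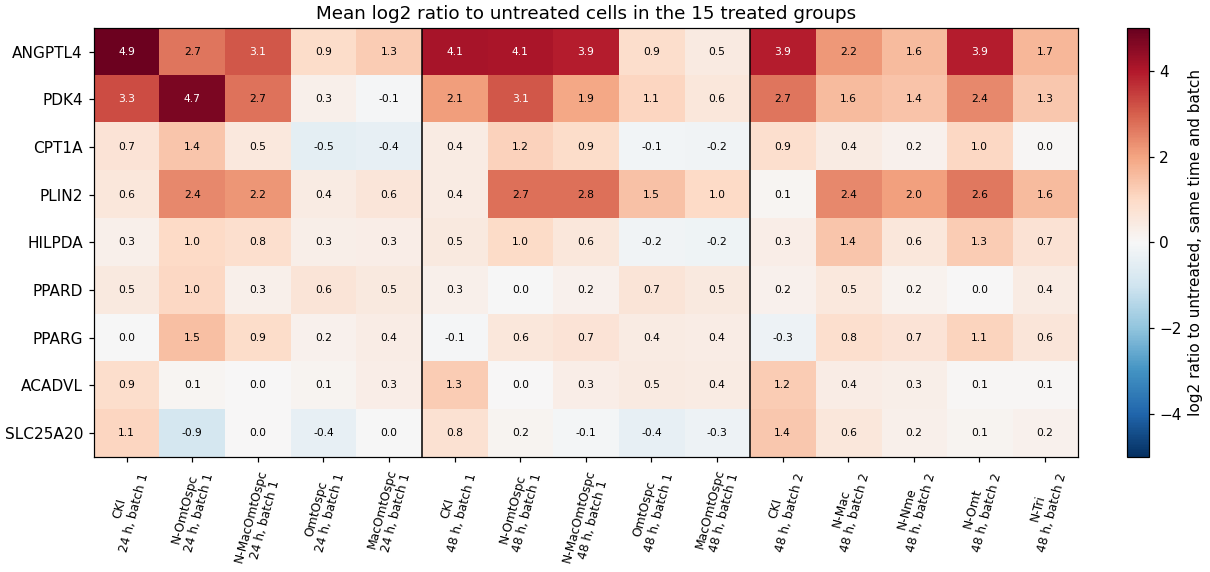
Log2 ratio to untreated cells of the same time point and batch, for the 9 genes (rows) and 15 treated groups (columns), red for higher and blue for lower. Each value is the group mean of log2 CPM, with a prior count of 2, minus that of untreated cells. ANGPTL4 reaches 4.89 with CKI at 24 h, PLIN2 is high where a component is missing, and the ACADVL row is at 0.88 to 1.27 in the 3 CKI columns and at most 0.47 elsewhere.

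Leaving out the libraries that differ from their group moved these values as follows. Without CKI replicate 1 the 24 h log2 fold change went from 0.48 ± 0.11 to 0.36 ± 0.06 for PPARD, from 1.11 ± 0.15 to 1.24 ± 0.10 for SLC25A20, and by less for CPT1A (0.70 ± 0.07), PLIN2 (0.60 ± 0.08) and ACADVL (0.92 ± 0.07). Without N-OmtOspc replicate 3 at 24 h it went from 2.89 ± 0.41 to 2.32 ± 0.18 for ANGPTL4, from -0.79 ± 0.27 to -1.17 ± 0.17 for SLC25A20 and from 0.10 ± 0.12 to 0.23 ± 0.08 for ACADVL. In these 2 groups every gene but PPARG, with CKI, kept its side of untreated cells.

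The other genes of N-OmtOspc at 24 h stood, without replicate 3, at 4.84 ± 0.18 (PDK4), 1.55 ± 0.08 (CPT1A), 2.40 ± 0.08 (PLIN2), 0.99 ± 0.11 (HILPDA), 1.18 ± 0.07 (PPARD) and 1.59 ± 0.09 (PPARG). With N-MacOmtOspc the values without replicate 2 at 24 h were 2.96 ± 0.23 for PDK4, 0.65 ± 0.08 for CPT1A, 0.74 ± 0.10 for HILPDA, 0.17 ± 0.07 for PPARD, 1.13 ± 0.08 for PPARG, 0.12 ± 0.08 for ACADVL and 0.10 ± 0.14 for SLC25A20. Without its replicate 2 at 48 h, PPARD went from 0.25 ± 0.13 to 0.07 ± 0.08, SLC25A20 from -0.07 ± 0.15 to 0.05 ± 0.12 and CPT1A from 0.93 ± 0.12 to 0.79 ± 0.08, while ANGPTL4 stood at 3.96 ± 0.13, PDK4 at 1.92 ± 0.17, PLIN2 at 2.81 ± 0.08, HILPDA at 0.67 ± 0.10, PPARG at 0.72 ± 0.09 and ACADVL at 0.40 ± 0.08. With OmtOspc at 24 h, without replicate 2, PLIN2 was at 0.65 ± 0.12, PPARG at 0.45 ± 0.12, HILPDA at 0.43 ± 0.11, PPARD at 0.64 ± 0.09, PDK4 at 0.46 ± 0.36, ACADVL at 0.23 ± 0.12 and SLC25A20 at -0.24 ± 0.15.

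Counted by comparison with untreated cells, 7 of the 9 genes were called with CKI at 24 h (7 higher, 0 lower), beside 38.7% of all genes tested (19.3% higher), and 8 without CKI replicate 1, beside 53.0%. At 48 h 8 were called in batch 1 (all higher), beside 62.5% (31.6% higher), and 8 in batch 2 (7 higher and PPARG lower), beside 68.4% (34.1% higher). With N-OmtOspc 8 were called at 24 h and 6 at 48 h, beside 66.8% and 80.4% of all genes, and with N-MacOmtOspc 6 and 7, beside 45.9% and 64.7%. Without its replicate 2, N-MacOmtOspc at 24 h gave 7, beside 68.3%. OmtOspc gave 2 at 24 h, beside 16.5%, or 6 without replicate 2, beside 19.5%, and 7 at 48 h, beside 67.8%. MacOmtOspc gave 7 and 8, beside 35.8% and 60.5%. In batch 2 the numbers were 9 with N-Mac, 8 with N-Nme, 6 with N-Omt and 6 with N-Tri, beside 72.6%, 69.5%, 79.6% and 74.3%. Without replicate 3, N-OmtOspc at 24 h gave 9, beside 75.9%.

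The batch 2 mixtures, each lacking 1 component, were measured against whole CKI of the same batch and time. Loss of the component and handling of the fractions cannot be told apart in these differences. For ANGPTL4 the log2 difference was 0.01 ± 0.06 with N-Omt, with a 95% interval (normal approximation) from -0.10 to 0.13, and -1.75 ± 0.08, -2.34 ± 0.08 and -2.29 ± 0.08 with N-Mac, N-Nme and N-Tri. PDK4 split in the same way, by -0.26 ± 0.08 with N-Omt and by -1.09 ± 0.09, -1.26 ± 0.09 and -1.33 ± 0.10 with the others. CPT1A was 0.18 ± 0.05 with N-Omt and -0.43 ± 0.06, -0.65 ± 0.06 and -0.82 ± 0.05 with the others. For these 3 genes N-Omt was the mixture nearest to CKI and the others lay lower.

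The remaining genes did not separate N-Omt in this way. PLIN2 was above CKI in all 4 mixtures, by 2.34 ± 0.05, 1.96 ± 0.07, 2.55 ± 0.04 and 1.48 ± 0.04 with N-Mac, N-Nme, N-Omt and N-Tri. PPARG was above CKI by 1.10, 0.96, 1.39 and 0.88. ACADVL was below it, at -0.87, -0.95, -1.18 and -1.21, and so was SLC25A20, at -0.79, -1.13, -1.22 and -1.14. HILPDA was above CKI by 1.08 with N-Mac and 0.98 with N-Omt, and by 0.27 and 0.40 with N-Nme and N-Tri. PPARD moved by no more than 0.31 ± 0.05 in any of the 4. Of the 9 genes, 9, 8, 8 and 9 were called with N-Mac, N-Nme, N-Omt and N-Tri, beside 72.8%, 72.7%, 80.5% and 77.1% of all genes.

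**Figure D3:**
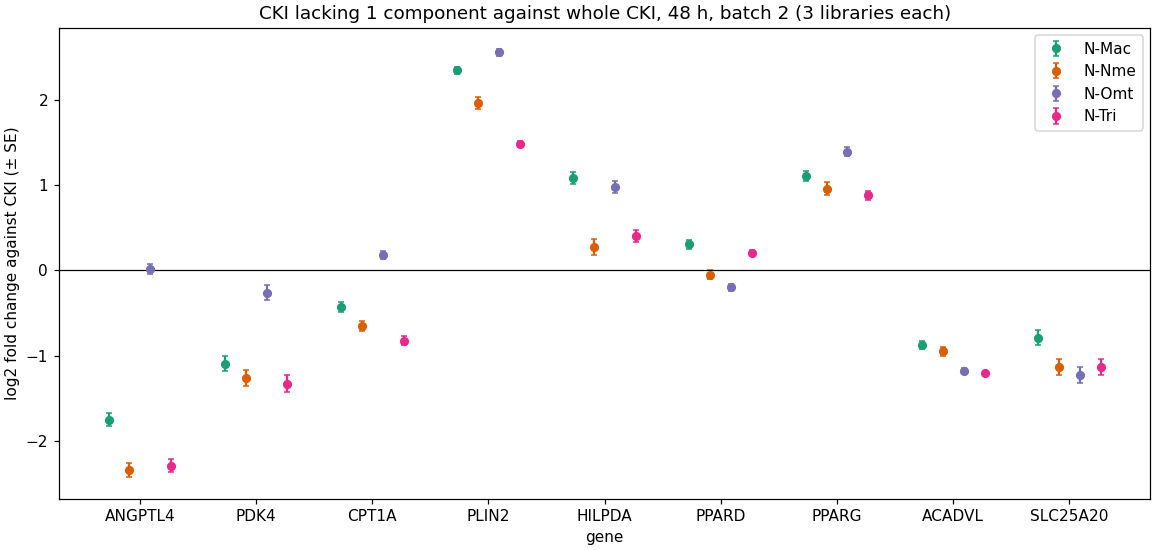
Log2 fold change (points, ± SE) of the 9 genes in CKI lacking 1 component against whole CKI at 48 h in batch 2, 3 libraries against 3. With N-Omt ANGPTL4 is at 0.01, PDK4 at -0.26 and CPT1A at 0.18, each nearer to 0 than with the other 3 mixtures. PLIN2 and PPARG are above 0 and ACADVL and SLC25A20 below 0 in all 4.

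The batch 1 mixtures gave comparisons in which Omt and Ospc, and then Mac as well, were taken out. N-OmtOspc against CKI at 48 h left ANGPTL4 at a log2 difference of -0.01 ± 0.06, a 95% interval from -0.13 to 0.11, whereas PLIN2 differed by 2.35 ± 0.06, PDK4 by 0.99 ± 0.11 and ACADVL by -1.23 ± 0.05. At 24 h ANGPTL4 differed by -2.18 ± 0.47, by -2.52 ± 0.41 without CKI replicate 1, and by -2.76 ± 0.45 without N-OmtOspc replicate 3. PLIN2 differed by 1.84 ± 0.12 there, by 1.81 ± 0.13 without CKI replicate 1, and by 1.79 ± 0.10 without N-OmtOspc replicate 3. Of the 9 genes, 9 were called at 24 h and 8 at 48 h, beside 54.0% and 77.8% of all genes.

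Removing Mac as well (N-MacOmtOspc against N-OmtOspc) went with lower PDK4, at -1.96 ± 0.22 at 24 h, -1.76 ± 0.16 without the library that stands apart, and -1.16 ± 0.12 at 48 h. PLIN2 differed by -0.13 ± 0.22 and 0.01 ± 0.10, and ANGPTL4 by 0.35 ± 0.43 and -0.17 ± 0.09. Without that library the 24 h difference was 0.10 ± 0.12 for PLIN2 and 0.61 ± 0.41 for ANGPTL4, and without N-OmtOspc replicate 3 the ANGPTL4 difference was 0.94 ± 0.35. At 24 h 4 of the 9 were called and at 48 h 3, beside 36.7% and 39.2%. Adding Mac to Omt and Ospc (MacOmtOspc against OmtOspc) went with lower PLIN2 (-0.50 ± 0.05), PDK4 (-0.53 ± 0.16) and ANGPTL4 (-0.43 ± 0.14) at 48 h, where 4 of the 9 genes were called, beside 9.72%. At 24 h edgeR called none of the 14211 genes tested and DESeq2 none, with 569 at an unadjusted p under 0.05. Leaving out OmtOspc replicate 1 gave 2184 genes called by edgeR, and leaving out replicate 2 gave 2. The ANGPTL4 difference was 0.24 ± 0.34, or -0.07 ± 0.23 without OmtOspc replicate 2.

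The CKI effect was also set against itself across time and batch. Between 24 and 48 h in batch 1 the log2 fold change differed by -0.90 ± 0.49 for ANGPTL4 and -1.15 ± 0.34 for PDK4 and by 0.41 ± 0.09 for ACADVL (48 h minus 24 h), and without CKI replicate 1 at 24 h the ANGPTL4 value was -1.25 ± 0.18. Of the 9 genes 0 were called by edgeR in this comparison, beside 1.56% of all genes, and 4 without CKI replicate 1 at 24 h, beside 9.45%. Between the batches at 48 h it differed by 0.62 ± 0.12 for SLC25A20, 0.57 ± 0.23 for PDK4 and 0.47 ± 0.08 for CPT1A (batch 2 minus batch 1). ANGPTL4 differed by -0.19 ± 0.20 and ACADVL by 0.00 ± 0.06. Here 2 of the 9 genes passed the threshold, beside 13.8% of all genes.

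Over the 15 treated groups the genes could be grouped by their log2 ratios to untreated cells. Pearson's r was 0.911 for PDK4 and CPT1A, 0.832 for PLIN2 and PPARG and 0.719 for ACADVL and SLC25A20, and ANGPTL4 correlated with CPT1A at 0.786 and PDK4 at 0.714. ANGPTL4 and PLIN2 gave 0.148, and PPARG and ACADVL -0.778. These are descriptions over 15 groups that share untreated libraries within each time point and batch. Among 13332 genes averaging 1 CPM or more, those most like ANGPTL4 by this measure were PPT2 (r = 0.936), P4HA2 (0.93), LOC389602 (0.885), CACNG7 (0.885), ZFYVE19 (0.882) and TOR1B (0.878), and those least like it were FBXO25 (-0.892), LOXL1-AS1 (-0.886) and SRSF3 (-0.88). P4HA2, a collagen prolyl hydroxylase, had a log2 ratio of 1.43, 1.21 and 1.25 with CKI and 0.30 with OmtOspc at 48 h. Among the 9 genes, CPT1A was the most like ANGPTL4, at rank 77 of 13331, and PLIN2 was at rank 4535.

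The other 93 genes of the pathway, listed by role and none of them among the 9, were tested with edgeR (quasi-likelihood, p-values adjusted by Benjamini-Hochberg over all genes). With CKI at 24 h, 31 of the 69 that could be tested changed, 20 up and 11 down (44.9%, beside 38.7% of all genes). Leaving out CKI replicate 1 gave 43 and leaving out untreated replicate 2 gave 20. At 48 h 45 of 70 changed in batch 1, 27 up and 18 down (64.3%, beside 62.5%), and 55 of 70 in batch 2, 34 up and 21 down (78.6%, beside 68.4%). The median log2 fold change of the tested genes was 0.11, 0.03 and 0.11, beside 0.0138, 0.00491 and -0.00119 over all genes. In all 3 comparisons 26 of the 68 genes tested in each changed in the same direction, 16 up and 10 down (38.2%), beside 31.0% of all genes. Of these, 15 of the 16 and all 10 averaged 1 CPM or more.

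By role, the lipid droplet genes had 1 of 5, 4 of 6 and 5 of 6 called higher in the 3 CKI comparisons and 0 lower, and without CKI replicate 1 at 24 h 3 of 5 higher and 1 lower. Of the 10 peroxisomal genes 4, 4 and 7 rose and 1 fell each time, with 7 up and 1 down at 24 h without that library. Of all genes tested, 19.3%, 31.6% and 34.1% were called higher and 19.3%, 31.0% and 34.4% lower in these comparisons, and at 24 h 26.5% each way without CKI replicate 1. Genes of fatty acid uptake, activation and lipolysis went both ways, 6, 6 and 4 up and 5, 7 and 9 down of 14, as did those of mitochondrial oxidation, with 3 up and 4 down of 18 at 24 h and 5 up and 7 down, then 6 up and 8 down, of 19 at 48 h. Without CKI replicate 1 the 24 h counts were 6 up and 6 down for uptake and 4 up and 5 down for oxidation. Of the 12 receptors and co-regulators tested 3, 4 and 6 rose and 0, 2 and 1 fell, and of the 5 other targets 2, 2 and 3 rose and 0, 0 and 1 fell; without that library 3 receptors rose and 1 fell, and 3 other targets rose. The angiopoietin-like list had 1 gene called, ANGPTL2, which fell. The 24 h calls of the named genes that follow were all kept without CKI replicate 1.

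**Figure D4:**
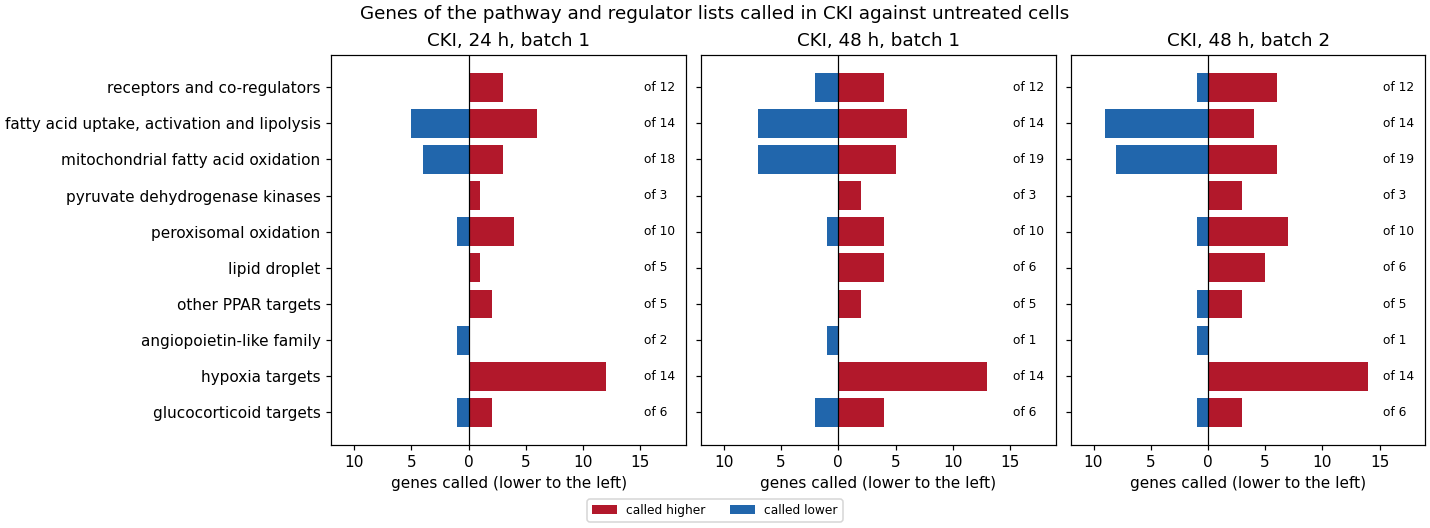
Number of genes called higher (red, right) or lower (blue, left) with CKI than in untreated cells, by list, with the number tested at the right of each bar, for the 3 CKI comparisons. Hypoxia targets are called higher in 12, 13 and 14 of 14, beside 19.3%, 31.6% and 34.1% of all genes tested. Fatty acid uptake and mitochondrial oxidation genes are called in both directions.

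Among the receptors, PPARA, the PPAR of liver fat oxidation, rose with CKI by 1.34 ± 0.12 (adjusted p = 0.000252), 1.02 ± 0.07 (adjusted p = 1.36e-09) and 1.37 ± 0.05 (adjusted p = 2.81e-10) on the log2 scale, in 9 of 9 libraries. RXRA, the partner receptor, changed by -0.04 ± 0.09 (adjusted p = 0.762), -0.18 ± 0.06 (adjusted p = 0.01) and 0.17 ± 0.05 (adjusted p = 0.0139), so that it fell in 1 batch and rose in the other at 48 h. Both RXRA calls were lost with 1 library left out, at an adjusted p of 0.0665 without CKI replicate 2 in batch 1, and of 0.0745, 0.0694 and 0.0694 without untreated replicate 1, CKI replicate 1 or CKI replicate 3 in batch 2; the batch 1 value was -0.11 with library sizes alone (adjusted p = 0.0829). RXRB fell at 48 h in batch 1 (log2 fold change -0.23 ± 0.05 (adjusted p = 0.00129)) and was not called in the other 2. PPARGC1A, a co-activator of mitochondrial genes, rose in batch 2 by 0.82 ± 0.10 (adjusted p = 1.4e-05), and PPARGC1B fell there (log2 fold change -0.53 ± 0.14 (adjusted p = 0.00515)). At 24 h and at 48 h in batch 1 neither was called with all libraries; PPARGC1A reached 0.0422 without CKI replicate 3 at 24 h and 0.0336 without untreated replicate 1 at 48 h, and PPARGC1B 0.0464 without CKI replicate 1 at 24 h, as adjusted p. Without CKI replicate 1 the 24 h value of PPARGC1A was 0.16 ± 0.15, against 0.58 ± 0.29 with it. NCOA3, another co-activator, rose in all 3, by 0.87 ± 0.16, 0.39 ± 0.08 and 0.65 ± 0.05 (largest adjusted p = 0.00427).

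Of the kinases related to PDK4, PDK1 rose in all 3 comparisons, by 0.90 ± 0.10 (adjusted p = 0.000647), 0.83 ± 0.07 (adjusted p = 1.42e-08) and 0.67 ± 0.05 (adjusted p = 3.97e-08). PDK2 and PDK3 rose in batch 2, by 0.35 ± 0.05 (adjusted p = 8.81e-05) and 0.52 ± 0.07 (adjusted p = 4.4e-05), and PDK3 also at 48 h in batch 1 by 0.22 ± 0.08 (adjusted p = 0.0255). That PDK3 call was lost without untreated replicate 3 (adjusted p = 0.142), CKI replicate 1 (0.0812) or CKI replicate 2 (0.0501). PDK2 at 24 h passed the threshold, downward, without CKI replicate 1, at -0.20 (adjusted p = 0.0454), but not with it (adjusted p = 0.0599). The other large rises were ETFDH, which passes electrons from fatty acid oxidation to the respiratory chain (1.29 ± 0.10, 1.07 ± 0.08 and 1.41 ± 0.06), the carnitine transferase relative CPT1C (0.78 ± 0.12, 0.86 ± 0.09 and 1.24 ± 0.09), and PNPLA2, the lipase ATGL that HILPDA inhibits (0.89 ± 0.12, 0.73 ± 0.06 and 1.02 ± 0.04). The largest adjusted p among these 3 genes was 0.00191. The peroxisomal PEX11A and ACAA1 rose by a mean of 0.65 and 0.54 over the 3 comparisons.

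Genes that fell in all 3 CKI comparisons were led by UCP2, a mitochondrial carrier (-1.83 ± 0.15, -1.29 ± 0.06 and -1.14 ± 0.07, largest adjusted p = 0.000174), and FABP5, a fatty acid binding protein known to hand ligands to PPARD (-1.28 ± 0.13, -1.13 ± 0.11 and -1.06 ± 0.08, largest adjusted p = 0.000425). LPL, the lipase that ANGPTL4 blocks, fell too, with log2 fold changes of -1.43 ± 0.30 (adjusted p = 0.00779), -0.997 ± 0.27 (adjusted p = 0.00334) and -0.80 ± 0.30 (adjusted p = 0.0315). Its mean over the 18 libraries was 1.19 CPM, and the batch 2 call was lost without untreated replicate 2 (-0.52, adjusted p = 0.147), CKI replicate 2 (-0.59, 0.137) or CKI replicate 3 (-0.86, 0.0627). FABP3, the lipase LIPE, the oxidation enzymes HADH and EHHADH, and ANGPTL2 fell by 1.05, 1.01, 0.87, 0.60 and 0.58 on average. At 24 h the FABP3 call was lost with any 1 of 3 libraries left out (untreated replicate 1 or 2, or CKI replicate 2, adjusted p = 0.0722 to 0.082), and the ANGPTL2 call with any 1 untreated library left out (adjusted p = 0.0682 to 0.0784).

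The same pathway genes were compared between the single removals and whole CKI in batch 2. With N-Mac 55 of 69 differed (20 higher, 35 lower), with N-Nme 54 of 70 (21 and 33), with N-Omt 61 of 69 (20 and 41) and with N-Tri 57 of 69 (19 and 38), beside 36.2%, 35.5%, 40.4% and 38.6% of all genes lower. Of the 10 peroxisomal genes 9, 6, 9 and 8 were lower and 0 higher. PDK1, PDK2 and PDK3 were lower than with CKI in all 4 mixtures, PDK2 by -1.32 ± 0.06 (adjusted p = 1.14e-17), -1.40 ± 0.07 (adjusted p = 1.31e-12), -1.97 ± 0.07 (adjusted p = 4.58e-33) and -1.61 ± 0.06 (adjusted p = 4.59e-28) with N-Mac, N-Nme, N-Omt and N-Tri. PPARA differed by -0.57 ± 0.05, -0.65 ± 0.06, -0.47 ± 0.05 and -0.71 ± 0.04, and PNPLA2 by -1.58 ± 0.05, -1.33 ± 0.06, -1.46 ± 0.04 and -1.21 ± 0.03, each lower in all 4 by the test. ANGPTL2 differed by -2.18 ± 0.08, -2.64 ± 0.08 and -2.31 ± 0.08 with N-Mac, N-Nme and N-Tri and by -0.57 ± 0.06 with N-Omt, also lower in all 4 by the test. FABP5 was higher in all 4, by 0.69 ± 0.09 to 1.18 ± 0.07 with N-Mac and N-Omt.

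Targets of other regulators that share genes with the PPARs moved beside the 9 genes. Of 14 hypoxia targets 12, 13 and 14 rose in the 3 CKI comparisons and 0 fell, beside 19.3%, 31.6% and 34.1% of all genes called higher, and 12 rose at 24 h without CKI replicate 1, beside 26.5%. CA9, a carbonic anhydrase, rose by 1.97 ± 0.26 (adjusted p = 0.00108), 2.09 ± 0.13 (adjusted p = 1.13e-10) and 2.14 ± 0.10 (adjusted p = 2.37e-09). P4HA1, ADM and ANKRD37 rose by a mean of 1.54, 1.27 and 1.19. Against whole CKI, 10 of the 14 were lower and 3 higher in each of the 4 batch 2 mixtures, beside 36.2%, 35.5%, 40.4% and 38.6% of all genes lower. CA9 differed by -2.08 ± 0.08 (adjusted p = 1.87e-20) with N-Mac and -3.01 ± 0.09 (adjusted p = 9.46e-35) with N-Omt. Against untreated cells, 9 of the 14 were called higher and 1 lower with N-Mac, and 8 higher and 2 lower with N-Omt. In these 2 comparisons 72.6% and 79.6% of all genes were called in either direction. With OmtOspc at 24 h 10 of 14 rose, beside 8.54% of all genes, and 12 without replicate 2, beside 10.3%. ANGPTL4 overlapped untreated cells there in replicate 2 only, at 3.38 CPM. Its log2 fold change without that library was 1.38 ± 0.24. With MacOmtOspc at 24 h, where ANGPTL4 lay above untreated cells, 13 of 14 rose and 1 fell. Of all genes, 35.8% were called in either direction in that comparison. Of 6 glucocorticoid targets tested, 2, 4 and 3 rose and 1, 2 and 1 fell with CKI. DUSP1, a phosphatase, rose by 1.14 ± 0.38 (adjusted p = 0.046), 1.67 ± 0.07 (adjusted p = 9.42e-13) and 0.99 ± 0.12 (adjusted p = 6.49e-06), PER1 rose by a mean of 0.54, and SGK1 fell, with log2 fold changes of -1.17 ± 0.23 (adjusted p = 0.00618), -1.05 ± 0.08 (adjusted p = 2.25e-09) and -1.70 ± 0.08 (adjusted p = 2.29e-09). The 24 h DUSP1 call was lost with any 1 untreated library left out (adjusted p = 0.111 to 0.131), and without CKI replicate 1 the DUSP1 value was 0.46 ± 0.07 (adjusted p = 0.000335). With N-OmtOspc against untreated cells, 5 of the 6 glucocorticoid targets rose and 1 fell, at 24 h and again at 48 h. Of all genes, 66.8% and 80.4% were called in either direction in these 2 comparisons. The part of hypoxia and glucocorticoid signalling in the levels of the 9 genes was not tested.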

How the data were processed

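RNA-seq libraries of 54 MDA-MB-231 cultures were analysed (18 groups of 3). The deposited file holds raw counts per gene for 27978 genes. Per the labels, RNA was selected with oligo(dT) and sequenced as strand-specific paired reads; the submitters' processing notes name FastQC 0.11.4, Trim Galore 0.3.7, STAR 2.5.3a, featureCounts of Subread 1.5.2, edgeR 3.22.3 and genome hg19. Of the genes 3798 had no count in any library. No 2 libraries of a group agreed within sampling noise (chi-square per degree of freedom of 1.97 or more).

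From the counts, CPM were computed here after TMM scaling, and edgeR 4.0.16 (R 4.3.3) was used for quasi-likelihood tests on the 6 libraries of each comparison (filterByExpr, Benjamini-Hochberg adjustment, threshold 0.05), with 12 libraries for differences between time points or batches. Comparisons were repeated with RLE scaling, library sizes alone, DESeq2 1.42.0, other filters, all libraries of a block in 1 fit, the replicate number as a block, and each library left out. Scripts were tested on simulated data. The members and all gene lists were chosen with earlier results of these data known. Named besides the 9 members were PPARA, RXRA, RXRB, PPARGC1A, PPARGC1B and PDK1 to PDK3, the 8 pathway genes with the largest mean rise and the 8 with the largest mean fall among those called in 1 direction in all 3 CKI comparisons with a mean of at least 1 CPM, and up to 4 hypoxia and glucocorticoid targets a direction. Promoter windows came from RefSeq on another build, GRCh38.p14, and were matched by symbol alone. Likeness and the heat map used group means of log2 CPM, with a prior count of 2, minus those of untreated cells. Total counts of 17673537 to 26138924 per library leave counting error largest for PDK4, ANGPTL4 and SLC25A20, which had as few as 9, 38 and 53 counts in a library; the other members had 228 or more. Every table column was matched to a sample.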

Additional observations from a re-analysis of the deposited data

Results flagged for a closer look

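The CKI effect at 48 h differed between the batches, by the interaction term of edgeR's quasi-likelihood fit over 12 libraries with Benjamini-Hochberg adjustment, for 9 of the named genes that are not members. Given as batch 2 minus batch 1 on the log2 scale, it was larger in batch 2 for ETFDH by 0.34 (adjusted p = 0.0323), for PPARA by 0.36 (adjusted p = 0.0153), for PNPLA2 by 0.31 (adjusted p = 0.00898) and for ANKRD37 by 0.54 (adjusted p = 0.00627), all of which rose in both batches. For RXRA the difference was 0.36 (adjusted p = 0.00462), for PPARGC1A 0.65 (adjusted p = 0.00871) and for PDK2 0.38 (adjusted p = 0.00501). DUSP1 rose less in batch 2, by -0.67 (adjusted p = 0.00422), and SGK1 fell further there, by -0.64 (adjusted p = 0.000823).

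Of the 9 members, a pair moved in opposite directions at the 2 time points in all 3 libraries of a mixture, a difference that was not tested. SLC25A20 with N-OmtOspc lay below untreated cells at 24 h and above them at 48 h, a change of 0.98 in the log2 ratio. HILPDA with MacOmtOspc lay above untreated cells at 24 h and below them at 48 h, a change of -0.56. The 48 h values were not called, at 0.16 ± 0.11 for SLC25A20 and -0.21 ± 0.09 for HILPDA. Of all genes, 37.8% lay wholly below untreated cells with N-OmtOspc at 24 h and 40.2% wholly above at 48 h. With MacOmtOspc 23.4% lay wholly above at 24 h and 31.5% wholly below at 48 h. The share of all genes that did both was not computed.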

How the results depend on the processing

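Of the comparisons with untreated cells, 24 of 1215 recomputed member values and 6 of 1131 values of other named genes changed sign, all of them values that were not called, of at most 0.24 and 0.08 in size as reported; no called value changed sign. Between mixtures at 24 h, the differences of ANGPTL4, CPT1A, HILPDA, PLIN2 and PPARG between MacOmtOspc and OmtOspc changed sign without OmtOspc replicate 2, and those of PLIN2 and ACADVL between N-MacOmtOspc and N-OmtOspc without N-MacOmtOspc replicate 2. The alternatives for the named genes and the values without the libraries that differ from their group were added after seeing the data. With library sizes alone the median of all genes moved by over 0.1 on the log2 scale with N-OmtOspc at 24 h (-0.319 against untreated cells, -0.354 against CKI), and 51 of 135 member values moved by more than the replicate spread. Of 361 recomputed counts of pathway genes, 339 were within 1.5 times the reported one. With 18 libraries in 1 fit the number called was 12 rather than 32 for MacOmtOspc at 24 h and 5 rather than 9 for MacOmtOspc against OmtOspc at 48 h. For the change of the CKI effect between 24 h and 48 h, where edgeR called 0 of 73 pathway genes (8 at an unadjusted p under 0.05), the count was 1 with library sizes alone, 2 with DESeq2, 1 with genes of at least 1 count and 1 with a mean of at least 1 CPM. The cause was not tested.

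With 1 library left out, the pathway count ranged from 20 to 43 for CKI at 24 h (20 without untreated replicate 2), from 24 to 53 for N-MacOmtOspc at 24 h (53 without its replicate 2) and from 6 to 37 for OmtOspc at 24 h, reported as 18 (7, 6 and 9 without untreated replicates 1, 2 and 3, 37 without its replicate 1 and 9 without its replicate 3). It ranged from 16 to 31 for N-MacOmtOspc against N-OmtOspc at 24 h (16 without N-OmtOspc replicate 1, 21 without N-MacOmtOspc replicate 3) and from 27 to 51 at 48 h (27 without N-OmtOspc replicate 1 or 3). It ranged from 0 to 13 for MacOmtOspc against OmtOspc at 24 h (13 without OmtOspc replicate 1), from 6 to 14 at 48 h (14 without MacOmtOspc replicate 2), and from 0 to 8 for the change between 24 h and 48 h (8 without CKI replicate 1 at 24 h).

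The replicate numbers did not pair the libraries: in 0 of 25 comparisons did every same-numbered pair correlate above 0.1 (r from -0.224 to 0.335). With the replicate block, CKI at 24 h gave 21 pathway genes rather than 31, no count moved by more than 1.5 times, and 1 named call was lost, FABP3 at 24 h (adjusted p = 0.0509). DESeq2 lost the calls of ANGPTL2 (0.0523) and LPL (0.0601) in batch 2 and DUSP1 at 24 h (0.0572), and the fit of 18 libraries those of FABP3 at 24 h (0.0795) and PDK3 (0.0663) and RXRA (0.157) at 48 h in batch 1.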
